A study of Mus musculus with 6 samples.

Results

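The Ms4a membrane proteins were examined in bone marrow-derived dendritic cells (BMDCs) through 6 genes, *Ms4a6d*, *Ms4a6b*, *Ms4a6c*, *Ms4a4c*, *Ms4a7* and *Ms4a3*. All probes that the platform annotation pairs with these symbols were taken, each on its own. They were 6 of the 45281 probes on the array, 2 each for *Ms4a6d*, *Ms4a7* and *Ms4a3*, so that 3 of the 6 genes were measured out of 10421 with a named probe. The annotation used here names probes of the log2 table of the authors only and pairs none with *Ms4a6b*, *Ms4a6c* or *Ms4a4c*, which were not analysed here. The tested cells were C57BL/6 BMDCs given 20 ng/ml recombinant IL-4 for 6 h, and the controls were kept for the same 6 h with no IL-4. Both had 5 ng/ml GM-CSF in these hours, after 10 days of growth from bone marrow in 20 ng/ml GM-CSF. Marrow came from 3 male mice, each group has 3 arrays numbered 1 to 3, and no cell sort before RNA extraction is stated, so each array reads the whole culture.

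Ms4a proteins cross the membrane several times, with both ends inside the cell, and their genes lie in a cluster on mouse chromosome 19. Among the founding members are *Ms4a1*, which encodes CD20 of B cells, and *Ms4a2*, which encodes the beta chain of the high-affinity IgE receptor of mast cells and basophils. *Ms4a6d*, *Ms4a7* and their close relatives are known from macrophages and other myeloid cells, where several Ms4a proteins associate with signalling receptors, and *Ms4a3* is known from granulocyte and monocyte precursors and basophils. IL-4 acts through STAT6 and is known for driving alternative activation of macrophages and dendritic cells. The RefSeq gene list holds 21 Ms4a genes on chromosome 19, ordered here among themselves with no look at other genes between them. In that order *Ms4a7* lies between *Ms4a14* and *Ms4a4a*, *Ms4a6d* lies between *Ms4a4d* and *Ms4a2*, and *Ms4a3* comes last, after *Ms4a2*.

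Levels are log2 bead signals after background correction and quantile normalization, and a difference is IL-4 minus control on that scale. A probe counts as detected on an array where its detection p, the chance that a probe with no target is as bright, was under 0.05. Of the 16071 probes detected on at least 3 arrays, 4 were of the Ms4a genes, both of *Ms4a6d* and 1 each of *Ms4a7* and *Ms4a3*. Median raw signals were 97.0 to 121 on the IL-4 arrays and 83.8 to 118 on the control arrays, and 33.0% to 38.0% of probes were detected per array. Of 11 genes listed for conventional dendritic cells 10 were measured. Among them the MHC class II chain *Cd74* was at 13.96 to 14.12 and the transcription factor *Zbtb46* at 6.17 to 6.50 over the 6 arrays. Of the 10, 2 were higher on every IL-4 array, *Batf3* (9.74 to 9.76 against 8.52 to 8.99) and *Irf4* (9.77 to 10.69 against 9.21 to 9.26). *Dpp4* was lower on every IL-4 array, at 7.62 to 7.79 against 8.06 to 8.42. Of all 16071 probes, 6.09% were higher on every IL-4 array. With 3 arrays a group, precision is limited by their number. The genes were listed with the IL-4 differences of these arrays in view, so for them the difference is a description. No p is printed for the IL-4 difference of a single probe of these 6 genes, and calls or counts of those past a threshold are not a test of them.

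*Ms4a6d* was about 3-fold higher with IL-4 by both of its probes. Probe ILMN_1241695 (gene ID 68774) read 10.49, 10.09 and 10.99 with IL-4 and 8.98, 8.56 and 9.29 in control cells, always in the order of replicates 1, 2 and 3. Every IL-4 array lay above every control array, and replicate 2 was the lowest and replicate 3 the highest in both groups. The means were 10.52 ± 0.45 with IL-4 and 8.94 ± 0.37 in control cells (SD, n = 3 each), a difference of 1.58 with a standard error of 0.27, or 2.99-fold. In bead signals before normalization, the same probe had 1565, 892 and 3133 on the IL-4 arrays and 327, 465 and 861 on the control arrays.

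The other *Ms4a6d* probe, ILMN_2602352, read 9.23, 9.00 and 9.03 with IL-4 and 7.61, 7.14 and 7.71 in control cells. The groups again did not overlap, and replicate 2 was again the lowest of each. Its means were 9.08 ± 0.13 with IL-4 and 7.49 ± 0.30 in control cells (SD, n = 3 each). The difference was 1.60 with a standard error of 0.19, or 3.03-fold. The probes thus differed by little in the size of the IL-4 difference, while replicate 3 led the IL-4 group by ILMN_1241695 and replicate 1 by ILMN_2602352. Its raw signals were 705, 453 and 870 on the IL-4 arrays and 171, 229 and 348 on the control arrays.

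*Ms4a7* was also higher with IL-4, with larger SDs between replicates than either *Ms4a6d* probe. Probe ILMN_3091003 (gene ID 109225), detected on all 6 arrays, read 7.51, 6.27 and 7.76 with IL-4 and 6.14, 5.18 and 6.19 in control cells. Replicate 2 was the lowest of both groups, and its IL-4 level lay only just above the highest control level. The means were 7.18 ± 0.79 with IL-4 and 5.84 ± 0.57 in control cells (SD, n = 3 each), which gave a difference of 1.34 with a standard error of 0.40, or 2.54-fold. Raw signals were 273, 139 and 411 on the IL-4 arrays and 109, 121 and 181 on the control arrays. The size of this difference depended on the treatment of background, since it was 0.98 with an offset of 50 in place of 16, 0.82 in the log2 table of the authors and 0.70 with no background correction.

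The second *Ms4a7* probe, ILMN_3019158, was at the edge of detection. It read 5.07, 4.57 and 5.04 with IL-4, where replicates 1 and 3 were detected, and 4.33, 4.40 and 4.55 in control cells, where no array was. The mean was 4.89 ± 0.28 with IL-4 and 4.43 ± 0.11 in control cells (SD, n = 3 each). Set against the lowest detected signal of each control array, the IL-4 group was at least 1.13-fold brighter on the neqc scale. That bound rests on the background correction, since the measured log2 difference was 0.054 in the table of the authors and 0.14 without background correction, both smaller than the bound. This probe was on too few arrays to be tested.

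*Ms4a3* did not separate the treatments and differed between replicate numbers. Probe ILMN_2719732 (gene ID 170813), detected on all 6 arrays, read 5.61, 8.50 and 5.40 with IL-4 and 5.41, 8.13 and 4.94 in control cells. Replicate 2 was far above the others in both groups, and the groups overlapped. The means were 6.50 ± 1.73 with IL-4 and 6.16 ± 1.72 in control cells (SD, n = 3 each), so the difference of 0.34, with a standard error of 0.94, was well inside the spread between replicates. Leaving out IL-4 replicate 2 made it -0.66 and leaving out control replicate 2 made it 1.32. The other probe, ILMN_1250529, read 4.46, 6.64 and 4.30 with IL-4 and 4.41, 6.01 and 4.43 in control cells. It was detected only on the replicate 2 arrays of both groups.

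**Figure D1:**
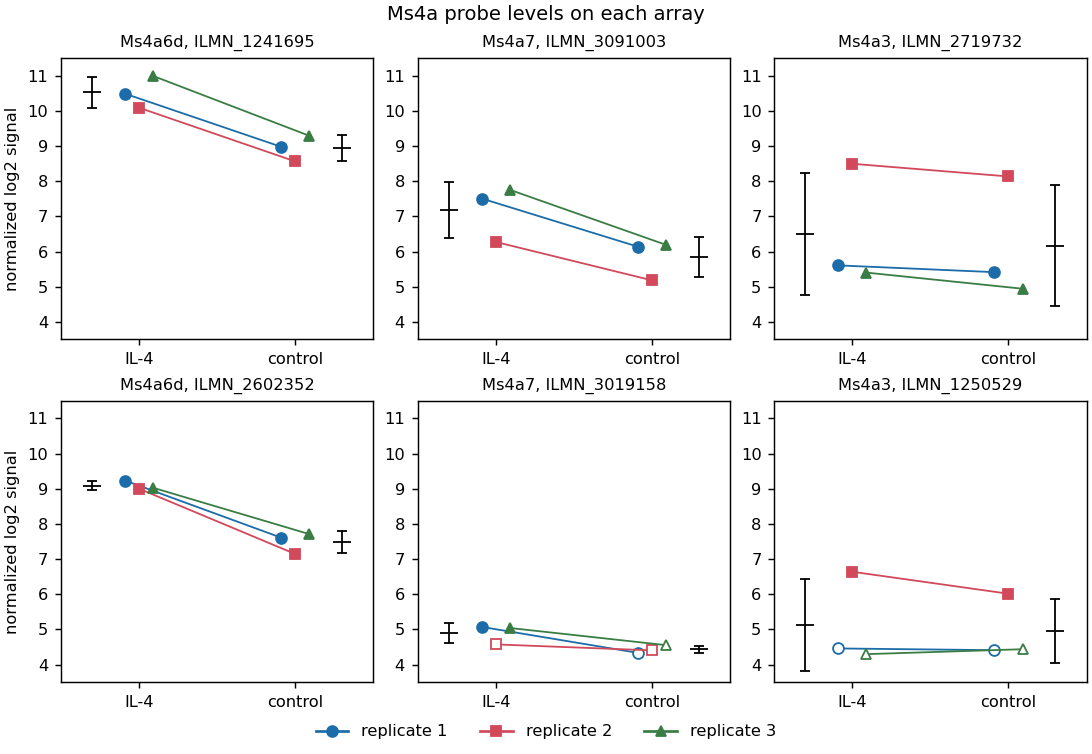
Normalized log2 signal of each Ms4a probe on the IL-4 arrays (left) and the control arrays (right), with lines joining arrays of the same replicate number, bars for the mean and SD (n = 3 each), and open symbols where the detection p was 0.05 or more. Both *Ms4a6d* probes and *Ms4a7* ILMN_3091003 lie higher with IL-4 in every replicate, while both *Ms4a3* probes are high in replicate 2 of either group.

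Over all tested probes the IL-4 difference had a median of -0.0029 and its 5th and 95th percentiles were -0.40 and 0.42, while the median over the 4 Ms4a probes was 1.46. At an adjusted p under 0.05 (limma, Benjamini-Hochberg), 0.112% of all tested probes were called higher and 0% lower, and 1 of the 4 Ms4a probes, *Ms4a6d* ILMN_2602352, was among them. Groups without overlap and with IL-4 above were found for 6.09% of all probes and for 3 of the 4. As the genes were chosen on this contrast, these counts only describe them.

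Over all tested probes, deviations from the group means correlated at 0.29, 0.55 and 0.62 between arrays of the same replicate number, and a difference within a number takes out what its pair shares. *Ms4a6d* ILMN_1241695 was higher with IL-4 by 1.51, 1.53 and 1.70 in replicates 1, 2 and 3, and ILMN_2602352 by 1.62, 1.86 and 1.32. *Ms4a7* ILMN_3091003 was higher by 1.37, 1.09 and 1.57. With the replicate number as a block the standard errors were 0.15 and 0.16 for *Ms4a6d* and 0.16 for *Ms4a7*, each below that without it. *Ms4a3* ILMN_2719732 had small differences of 0.19, 0.36 and 0.46, with a standard error of 0.15. The standard errors of this fit draw on the variance of all probes (eBayes) and do not give the spread of a probe's own pairs. IL-4 was above control in all 3 pairs for each of the 4 probes and for 16.3% of all probes. With the block, 1.44% of all tested probes were called higher and 0.834% lower, and 3 of the 4 Ms4a probes, all but that of *Ms4a3*, were called higher. That arrays of the same number come from the same mouse is not stated in the labels.

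**Figure D2:**
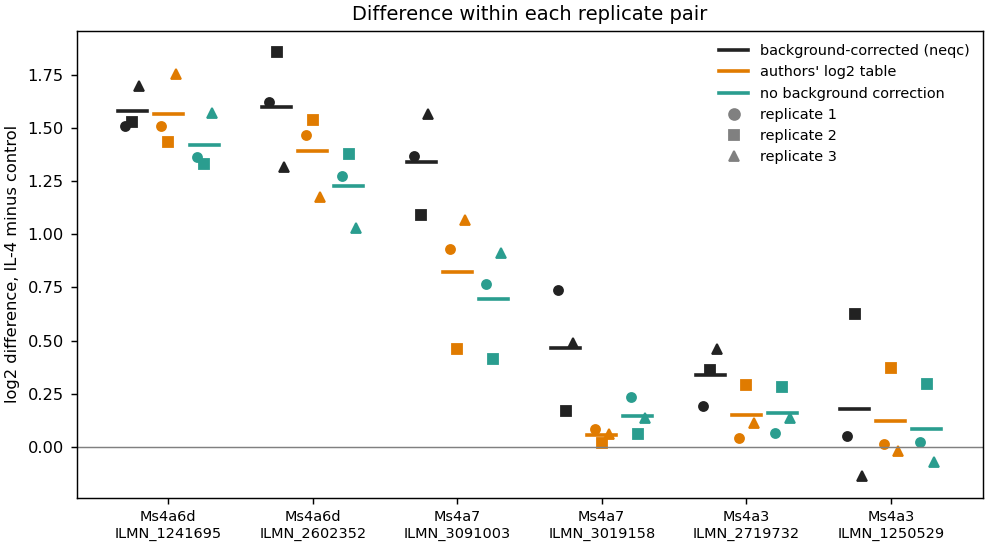
Log2 difference, IL-4 minus control, within each replicate pair for the Ms4a probes, from the neqc values, the log2 table of the authors and signals with no background correction (colours), with a symbol for each replicate number and a line at the mean. By neqc the pairs of *Ms4a6d* lie between 1.32 and 1.86 and those of *Ms4a7* ILMN_3091003 between 1.09 and 1.57, and those of *Ms4a3* ILMN_2719732 between 0.19 and 0.46.

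The size of the *Ms4a6d* differences held in the table of the authors, normalized in another way, at 1.57 for ILMN_1241695 and 1.39 for ILMN_2602352. Over 16 alternative settings the differences were 1.35 to 1.80 for ILMN_1241695, 1.23 to 1.74 for ILMN_2602352 and 0.70 to 1.80 for *Ms4a7* ILMN_3091003, always positive. *Ms4a3* ILMN_2719732 ran over -0.66 to 1.32 and kept its sign in 13 of the 16. The sign changed only in unpaired fits that left out a single array, and the blocked fits gave 0.28 to 0.41. The call of *Ms4a6d* ILMN_2602352 was lost in the table of the authors, without the detection filter, and when IL-4 replicate 1 or 3 or any control array was left out.

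**Figure D3:**
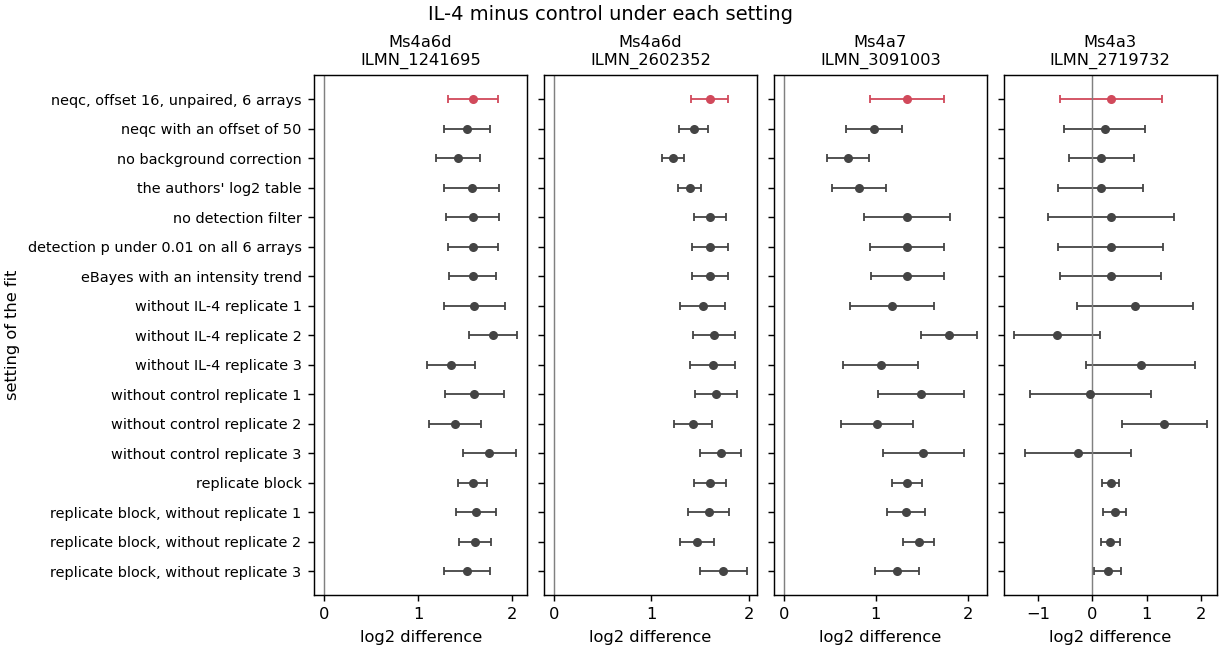
Log2 difference, IL-4 minus control, of the 4 tested Ms4a probes under each setting of the fit, with bars for the standard error. *Ms4a6d* stays between 1.23 and 1.80 by both probes, *Ms4a7* ILMN_3091003 between 0.70 and 1.80, and *Ms4a3* ILMN_2719732 lies on both sides of 0.

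The replicate numbers give a comparison that does not use the IL-4 difference. The genes and tests were chosen with earlier results of these data known, so for these genes it is a description. The p-values and calls given for them here are not a test of them. It is an F test in limma over the 3 numbers with treatment in the fit, adjusted over all tested probes. It called 5.25% of all probes and 2 of the 4 Ms4a probes. *Ms4a3* ILMN_2719732 differed between replicates at F = 169 and an adjusted p of 1.11e-06 (limma), with means over both treatments of 5.51, 8.31 and 5.17 in replicates 1, 2 and 3. *Ms4a7* ILMN_3091003 differed at F = 24.1 and an adjusted p of 0.00375, with means of 6.82, 5.73 and 6.97. So *Ms4a3* was high in replicate 2, and *Ms4a7* was lowest in replicate 2 within each treatment. Its IL-4 level there, 6.27, still lay above control replicates 1 and 3, at 6.14 and 6.19. *Ms4a6d* did not pass by either probe, at adjusted p of 0.0548 for ILMN_1241695 (means of 9.73, 9.32 and 10.14) and 0.476 for ILMN_2602352 (8.42, 8.07 and 8.37). The *Ms4a3* call held under all 12 alternatives, at an adjusted p of at most 0.0203, and that of *Ms4a7* under 9, with 0.0913 without background correction, 0.231 in the table of the authors and 0.112 without the detection filter. *Ms4a6d* ILMN_1241695 passed under 6 of the 12.

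Replicate 2 was singled out after these values were seen, so its distance from the others is a description. On the replicate 2 arrays *Ms4a3* ILMN_2719732 was higher by 2.97 than on the others, or 7.86-fold, where the 5th and 95th percentiles of all tested probes were -0.50 and 0.53. The size depended on the scale, at 4.71-fold with an offset of 50, 3.83-fold in the table of the authors and 3.13-fold without background correction, scales compared after the values were seen. Both replicate 2 arrays lay above the other 4 for this probe and for 10.6% of all probes. The second probe, ILMN_1250529, was at least 3.09-fold brighter there on the neqc scale, set against the lowest detected signal of the other arrays, while its measured ratio in the table of the authors was 1.53-fold. *Ms4a7* ILMN_3091003 differed by -1.17 on the replicate 2 arrays, and by -0.67 in the table of the authors and -0.57 without background correction.

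Markers of other cell types moved with the same arrays. Of 15 listed neutrophil and granulocyte precursor genes 13 were measured, and their summed level on the linear scale was 34688 to 34992 on the replicate 2 arrays and 7537 to 10676 on the others, with 11 of the 13 higher on both replicate 2 arrays. Of 12 listed mast cell and basophil genes 5 were measured, with sums of 5765 to 6553 on the replicate 2 arrays and 446 to 966 on the others. Of the 5, 4 were higher on both replicate 2 arrays. *Mmp8* of the neutrophil list was lowest on both replicate 2 arrays, at 4.72 on each and 5.09 to 5.95 on the others. *Kit* of the mast cell list was lowest there too, at 5.75 and 6.09 against 6.19 to 6.74. *Mcpt8*, *Cma1* and *Tpsb2* of that list and *Mpo* of the neutrophil list did not pass the detection filter. Of 15 macrophage and monocyte genes 12 were measured, with sums of 15578 to 18407 on the replicate 2 arrays and 23895 to 26824 on the others. *Lyz2*, at 12.91 to 14.09 (log2), was the brightest of them on every array and weighs most in the sum. Of the 12, 9 were lowest on both replicate 2 arrays. Over all tested probes 10.6% lay above the other 4 arrays on both replicate 2 arrays and 10.9% lay below. The macrophage genes *Adgre1* and *Ly6c1* went the other way and were highest on both replicate 2 arrays, *Adgre1* at 10.74 and 10.89 there and 9.37 to 10.10 on the others. By treatment these sums overlapped, at 15578 to 26001 with IL-4 and 18407 to 26824 in control cells for macrophage genes, 7537 to 34992 with IL-4 and 9235 to 34688 in control cells for neutrophil genes, and 446 to 5765 with IL-4 and 460 to 6553 in control cells for mast cell genes. In bulk cultures fewer cells of a type and less RNA per cell cannot be told apart, and the part of these cells in the *Ms4a3* and *Ms4a7* levels was not tested.

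**Figure D4:**
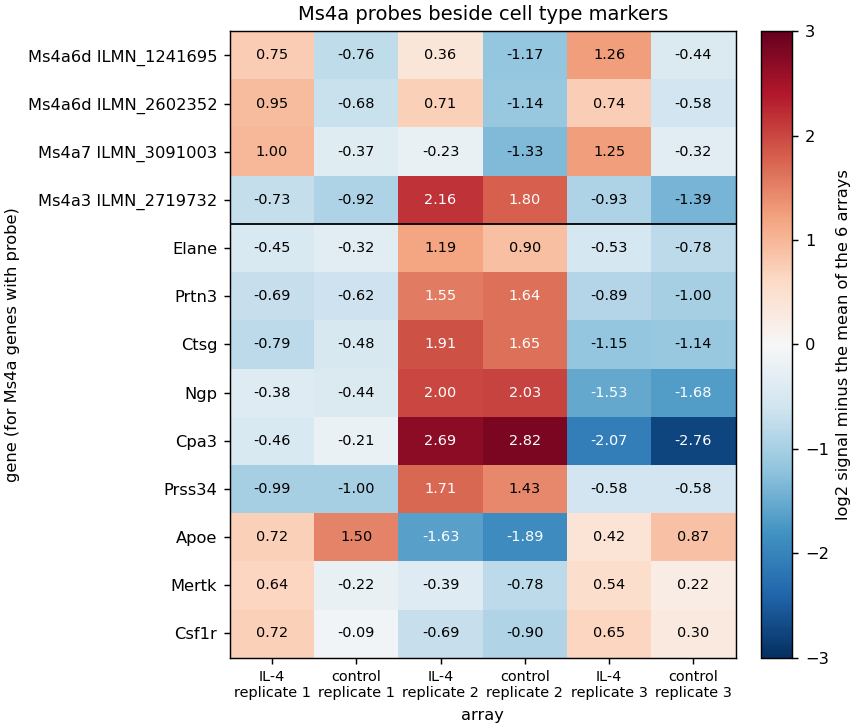
Log2 signal minus the mean of the 6 arrays for the 4 tested Ms4a probes (above the line) and for marker genes of neutrophil precursors, mast cells and macrophages that were picked for display after their values were seen, with IL-4 left of control in each replicate. *Ms4a3* is high on both replicate 2 arrays, as are *Elane*, *Ngp* and *Cpa3*, and *Apoe* is low there. Genes that went the other way are not drawn. *Adgre1* and *Ly6c1* of the macrophage list were high there, and *Mmp8* of the neutrophil list and *Kit* of the mast cell list were low.

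Among the other Ms4a genes, 3 of 14 listed had a named probe and 0 of the 2 probes tested were called, in the unpaired or the blocked fit. *Ms4a2*, the IgE receptor beta chain, read 4.29, 5.14 and 4.37 with IL-4 and 4.55, 4.81 and 4.33 in control cells. It was detected only on both replicate 2 arrays, the same arrays on which *Ms4a3* was high. *Ms4a1* was detected on 1 IL-4 array and 0 control arrays. Both tested probes were of *Ms4a8a*, known from epithelium and from some macrophages, with differences of -0.011 (ILMN_2531881) and -0.0065 (ILMN_1256614) at adjusted p of 0.998 each (limma).

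*Tmem176a* and *Tmem176b*, CD20-like relatives outside the Ms4a cluster, were not called by any of their 3 probes. *Tmem176b* read 10.57, 10.52 and 10.68 with IL-4 and 11.05, 10.64 and 10.82 in control cells, a difference of -0.25 ± 0.17 (SE) with an adjusted p of 0.880 (limma), and 0.560 with the block. *Tmem176a* ILMN_2795412 had a difference of 0.31 ± 0.30 (SE) and an adjusted p of 0.940 (limma), with pairs of 0.93, -0.57 and 0.57. Leaving out IL-4 replicate 1 made the difference 0.0016 and leaving out IL-4 replicate 2 made it 0.65, and the blocked fit without replicate 2 called it, at 0.75 with an adjusted p of 0.0297.

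The genes listed next, like the other Ms4a and Tmem176 genes, were chosen with earlier results of these data known, so their p-values are descriptions. Over all tested probes 0.112% were called higher without the block and 1.44% with it, and 6.09% had groups without overlap and IL-4 above. Of 5 listed genes for receptors and adaptors that Ms4a proteins have been reported to associate with, 4 had a named probe. Of their 5 probes 0 were called without the block and 2 with it. Both of these were of *Clec7a*, the beta-glucan receptor dectin-1. Its probe ILMN_2653132 read 10.72, 9.88 and 10.75 with IL-4 and 9.50, 8.86 and 9.66 in control cells, with no overlap, and differed by 1.22, 1.02 and 1.09 within the pairs. The mean difference was 1.11 with a standard error of 0.29 and an adjusted p of 0.303 (limma), and with the block a standard error of 0.15 and an adjusted p of 0.00216. The other probe, ILMN_2663258, read 9.99, 8.74 and 9.84 with IL-4 and 8.87, 8.20 and 8.73 in control cells. Its groups overlapped, as IL-4 replicate 2 lay below control replicate 1, and its pairs were 1.11, 0.54 and 1.11. Its difference was 0.92 with an adjusted p of 0.544 (limma), and 0.0123 with the block, a call lost without replicate 3 (0.0513). Both *Clec7a* probes differed between replicate numbers, at adjusted p of 0.0321 and 0.0291 (limma). *Trem2*, a lipid receptor of macrophages, read 10.38, 9.05 and 10.15 with IL-4 and 10.26, 8.67 and 9.87 in control cells. It was low in replicate 2, as *Ms4a7* was, and differed between replicates at an adjusted p of 0.001 (limma), while its IL-4 difference of 0.26 had an adjusted p of 0.974. That difference was -0.20 without control replicate 2 and 0.67 without IL-4 replicate 2. Within the pairs it was 0.12, 0.38 and 0.28. *Tyrobp*, the signalling adaptor of TREM2, and *Fcer1g*, the Fc receptor gamma chain, had IL-4 differences of -0.32 and -0.095, at adjusted p of 0.887 and 0.974.

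The stretches before the transcription start of *Ms4a7*, which was higher with IL-4, and of *Ms4a3*, which did not separate the treatments, are shown for comparison. They are 250 bases upstream of a RefSeq start (GRCm38.p6, minus strand), and capitals mark a STAT6-type motif, TTC and GAA with any 4 bases between them, searched on both strands.
Ms4a7 chr19:11336147-11336396: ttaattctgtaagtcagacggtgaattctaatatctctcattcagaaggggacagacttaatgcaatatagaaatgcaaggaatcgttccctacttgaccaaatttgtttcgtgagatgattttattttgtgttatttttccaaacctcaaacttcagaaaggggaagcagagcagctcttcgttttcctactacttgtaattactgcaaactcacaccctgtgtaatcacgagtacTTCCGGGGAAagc
Ms4a3 chr19:11640852-11641101: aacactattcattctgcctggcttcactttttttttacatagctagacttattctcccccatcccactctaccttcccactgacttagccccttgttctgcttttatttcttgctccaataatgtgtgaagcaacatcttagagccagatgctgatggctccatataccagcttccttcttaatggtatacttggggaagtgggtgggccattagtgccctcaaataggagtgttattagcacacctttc
The *Ms4a7* match TTCCGGGGAA runs from 13 to 4 bases before the start and reads as a match on either strand. Windows that add 50 bases after the start hold the STAT6-type motif in 6.953% of all 32851 windows listed, TTCNNNGAA with the shorter spacing in 8.298% and GAGGAAG, a PU.1-type core, in 13.63%. The *Ms4a3* window and the window of another *Ms4a7* start hold none of the 3. Of the 6 genes, 5 were matched in the promoter table and *Ms4a6d* was not. Among the genes with no probe here, the *Ms4a6b* window also holds the STAT6-type motif, after its start, and the *Ms4a6c* and *Ms4a4c* windows do not. A match is a description of the letters and not a bound site.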

How the data were processed

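RNA of BMDCs on 6 Illumina MouseWG-6 arrays (3 IL-4, 3 control) was analysed. The authors deposited mean bead signal intensity of 45281 probes, neither background-corrected nor normalized, with a detection p-value for each, and a log2 table of 19293 probes made in lumi by a transformation that stabilizes the variance and by robust spline normalization. The submitters' processing notes name lumi and limma, with versions not given in the sources used here.

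Background was estimated from the detection p-values by neqc (limma 3.58.1, R 4.3.3, offset 16), which then applies quantile normalization. Probes detected (p under 0.05) on 3 or more arrays were kept. lmFit and eBayes were fitted to all 16071 probes, IL-4 minus control, two-sided, with Benjamini-Hochberg adjustment over all of them and a threshold of 0.05. Adding the replicate number to the model gave the blocked fit and the F test. The platform annotation gave symbols, a single gene for 16243 probes and several for 8. Where a probe was not detected on any array of a group, a fold was computed against the higher of its own signal and the lowest detected signal of each array. Motifs were searched in RefSeq promoter windows. Figures were drawn with matplotlib 3.10.9 (Python 3.11.15). The fits were tested on simulated data.

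The labels give 3 mice and cells cultured in both conditions, and do not say that same-numbered arrays share a mouse. Correlations of deviations from the group means were 0.29, 0.55 and 0.62 for arrays of the same number and -0.55 to 0.096 for others, so with a threshold of 0.1 they were taken as pairs. The p-values rest on the spread between these arrays. In eBayes the variance of each probe is drawn towards a value shared by all probes. With 2 residual degrees of freedom the blocked fit leans on that shared value, so its standard errors are not the spread of a single probe.

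The members, the lists of other genes and markers, and the tests were chosen with earlier results of these data known. Named genes were all probes of the 6 Ms4a genes, those of the other Ms4a, Tmem176 and partner genes, and for each member gene the 3 genes with the most similar levels. Markers and genes outside the filter that are named were chosen after their values were seen.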

Additional observations from a re-analysis of the deposited data

How the results depend on the processing

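Without the block, 18 probes were called between IL-4 and control, and 1 of them was of an Ms4a gene. The table of the authors gave 0 (1330 at an unadjusted p under 0.05, limma) with 0 Ms4a probes (3 at an unadjusted p under 0.05), and no detection filter gave 1 with 0 Ms4a probes (4 at an unadjusted p under 0.05). The replicate block gave 365 with 3 Ms4a probes. Leaving out 1 array gave 1 to 67 calls with 0 to 2 Ms4a probes, namely 1 without IL-4 replicate 1 or control replicate 1, 6 without control replicate 3, 7 without IL-4 replicate 3, 12 without control replicate 2 and 67 without IL-4 replicate 2. With the block, leaving out replicate 1, 2 or 3 gave 348, 842 and 266 calls in that order, and 3 Ms4a probes each time. Between replicate numbers 844 probes were called, 2 of Ms4a genes. No background correction gave 512, the table of the authors 70 with 1 Ms4a probe and no detection filter 99 with 1 Ms4a probe. Leaving out 1 array gave 730 to 2473, with 2 to 3 Ms4a probes. The offset of 50, the stricter filter and the intensity trend kept these counts within 1.5 times. The median of all probes moved by at most 0.017 under any setting. The cause of these differences was not tested. Dim probes, such as those of *Ms4a7*, have differences that depend on the background correction.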

Other observations

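The genes whose levels followed each Ms4a gene most closely over the 6 arrays were sought among 8918 named genes. Pearson's r is given as a description, since the arrays share mice and treatments. These genes were picked for the highest r of so many over only 6 arrays, so a high r is no evidence of a link. For *Ms4a6d*, by its brighter probe ILMN_1241695 only, they were *Ncl*, the nucleolar protein nucleolin (r = 0.995), *Septin3* (0.993) and *Apol7c* (0.992). The other *Ms4a6d* probe, ILMN_2602352, had a lower r of 0.947 with ILMN_1241695. *Apol7c* was at 9.01 to 9.97 with IL-4 and 7.48 to 8.15 in control cells, a difference of 1.62 that was near that of *Ms4a6d*, while *Ncl* differed by 0.63. For *Ms4a7* they were *Plek2*, a pleckstrin relative (0.997), the signalling adaptor *Dok2* (0.994) and the cell cycle transcription factor *E2f5* (0.992), with IL-4 differences of 0.66, 0.51 and 0.52.

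For *Ms4a3* they were the signal peptidase subunit *Spcs3* (0.997), the neutrophil elastase gene *Elane* (0.994) and *Cox6a2* (0.994). *Elane* lay at -0.45, 1.19 and -0.53 from its mean over the 6 arrays with IL-4, in the order of replicates 1, 2 and 3, and at -0.32, 0.90 and -0.78 in control cells (log2), high in replicate 2 of both groups as *Ms4a3* was. *Spcs3* followed the same order within a narrow range, 8.43 to 8.75 with IL-4 and 8.36 to 8.70 in control cells.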
